A study of Mus musculus with 3 samples.

Results

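The MS4A genes are a family of membrane proteins with several membrane-spanning segments, encoded side by side on mouse chromosome 19. The 8 genes described here are Ms4a4a, Ms4a4b, Ms4a4c, Ms4a4d, Ms4a6b, Ms4a6c, Ms4a6d and Ms4a7, chosen by gene name from the 55487 genes of the expression table. RNA was sequenced from 3 wild-type cultures of dendritic cells derived from bone marrow (BMDCs), which take up microbes and present their antigens to T cells. One culture was untreated, one was treated with P. vulgatus and one with YB328, both given only by these names in the labels, and each gave 1 library. The sources used here do not give age, sex, dose or exposure time. The series concerns how gut bacteria may add to PD-1 blockade in tumours, and the comparisons made here are YB328 against untreated, P. vulgatus against untreated, and YB328 against P. vulgatus. With 1 library per group no difference has a replicate check, no p-value is given, and every comparison sets 1 library against 1 other.

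The best known relatives are Ms4a1, which encodes the B cell antigen CD20, and Ms4a2, which encodes the beta chain of the mast cell receptor for IgE. The proteins sit in the plasma membrane or in endosomes and associate with other receptors, whose signalling or traffic they adjust. In macrophages MS4A4A associates with the beta-glucan receptor dectin-1, encoded by Clec7a, and in mouse macrophages Ms4a6d acts together with Vsig4 on the Nlrp3 inflammasome. Ms4a7 is widely used as a marker of macrophages, and Ms4a4b was described in mouse T cells, where it associates with the receptor GITR, encoded by Tnfrsf18.

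The deposited counts summed to 15538132.9, 26660869.8 and 26924006.2 for untreated, P. vulgatus and YB328. Levels are given in CPM, which are counts brought to a common library size, and in TPM, the deposited length-corrected level. A gene is said to have risen or fallen only if some library held 5 CPM or more, the log2 ratio after adding 0.5 CPM reached 1 in either direction, and the 95% Clopper-Pearson interval of the count ratio excluded 1. Folds are CPM ratios without the added 0.5, log2 ratios are with it, and brackets after a fold hold that 95% interval. Intervals cover counting error only, and since the reads were amplified and carry no molecular identifiers, even that may be understated. The untreated library stood apart in its RNA: protein-coding genes of the nucleus, leaving out Lars2, made up 57.9% of its counts, where the P. vulgatus library had 95.3% and the YB328 library 96.6%, and ribosomal RNA genes took 14.0%, 1.29% and 0.707%. The part of this difference in the comparisons with untreated cells was not tested. In bulk RNA, fewer cells of a type and less RNA per cell cannot be told apart.

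The 8 genes lay next to each other, with no other Ms4a gene between them, within 283811 bases of chromosome 19 (chr19:11321039-11604849, GRCm38). This stretch held 16 annotated genes, and none of the 8 that were not MS4A genes reached 5 CPM in any library. On either side lay 13 further Ms4a genes, of which Ms4a3 alone reached 5 CPM.

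**Figure D1:**
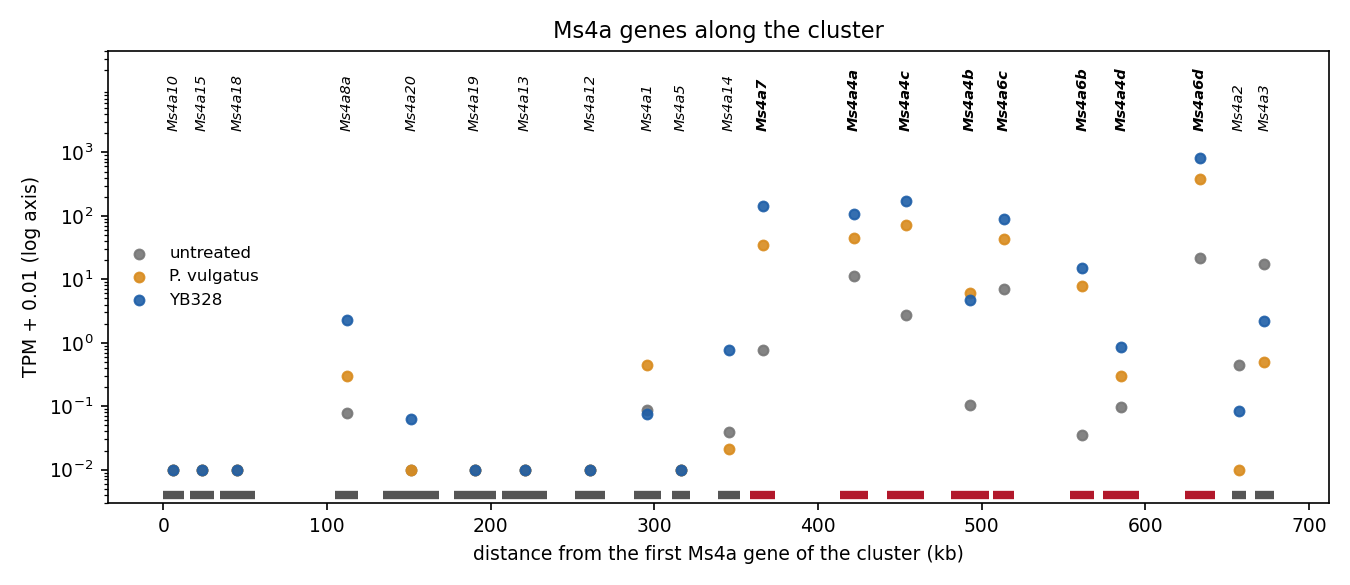
Deposited level (TPM with 0.01 added, log axis) of each Ms4a gene in each of the 3 libraries, against its distance in kilobases from the first Ms4a gene of the cluster. Bars at the bottom mark gene bodies, with the 8 genes described here in red and bold; 7 of them form a block of high points in the bacterial libraries, while 7 flanking genes lie at 0 in every library.

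Coding sequences of GENCODE M21 were aligned to see how close the copies are. Ms4a4b and Ms4a4c were 91.7% identical, Ms4a4c and Ms4a4d 87.9%, and Ms4a4b and Ms4a4d 85.6%. Ms4a6b was 85.4% identical to Ms4a6c and 81.2% to Ms4a6d, and Ms4a6c was 79.0% identical to Ms4a6d. Ms4a4a stood farther from the other Ms4a4 genes, at 67.1% to 68.3%, and Ms4a7 from all others, at 59.6% to 65.9%. The longest stretch shared without a difference was 127 bases, between transcripts of Ms4a4b and Ms4a4c, and it was 96 bases between Ms4a6b and Ms4a6c. Estimated counts that were not whole numbers were found for Ms4a4b, Ms4a4c, Ms4a6b and Ms4a6c, so the split of reads between these 4 genes, or between them and other genes, is uncertain. Such counts do not name the genes that shared reads. The library kit does not mark strand, and Ms4a6c also overlaps the noncoding BE692007 on the other strand, which had 56.03, 16.35 and 52.93 counts for untreated, P. vulgatus and YB328.

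The stretches before the transcription starts were read from RefSeq (GRCm38.p6), whose promoter table matched 7 of the 8 genes in 8 windows, since Ms4a7 has a second start, and had none for Ms4a6d. The closest pairs are shown because their likeness can be set beside their expression below: over aligned bases the 250 bases before the start were 80.1% identical between Ms4a4b and Ms4a4c and 85.1% between Ms4a6b and Ms4a6c, and 49.6% to 64.3% between all other pairs of windows. All 4 are on the plus strand, at chr19:11443308-11443557 for Ms4a4b, chr19:11407411-11407660 for Ms4a4c, chr19:11518309-11518558 for Ms4a6b and chr19:11469118-11469367 for Ms4a6c. Capitals mark runs of at least 8 aligned bases that are the same in both genes of a pair, and the last base printed is the one before the RefSeq start. As annotated in the expression table, Ms4a4c begins at 11404770 and Ms4a6b at 11516512, so their windows lie inside the genes as counted.
Ms4a4b: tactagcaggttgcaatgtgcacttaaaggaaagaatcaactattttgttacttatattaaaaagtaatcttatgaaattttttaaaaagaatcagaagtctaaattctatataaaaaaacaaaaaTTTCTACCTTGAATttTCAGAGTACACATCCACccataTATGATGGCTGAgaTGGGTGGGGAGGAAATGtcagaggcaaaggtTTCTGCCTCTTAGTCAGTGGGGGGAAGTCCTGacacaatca
Ms4a4c: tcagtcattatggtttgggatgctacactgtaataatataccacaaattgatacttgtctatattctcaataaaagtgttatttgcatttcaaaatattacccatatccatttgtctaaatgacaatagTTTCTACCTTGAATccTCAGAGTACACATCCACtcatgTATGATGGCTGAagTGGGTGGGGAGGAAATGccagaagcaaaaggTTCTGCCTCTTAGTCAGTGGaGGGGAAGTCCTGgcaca
Ms4a6b: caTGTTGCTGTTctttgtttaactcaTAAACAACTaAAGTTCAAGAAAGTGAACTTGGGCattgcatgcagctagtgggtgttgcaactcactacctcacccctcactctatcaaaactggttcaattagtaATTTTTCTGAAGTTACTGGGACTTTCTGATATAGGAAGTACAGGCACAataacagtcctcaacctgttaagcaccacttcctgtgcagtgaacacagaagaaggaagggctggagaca
Ms4a6c: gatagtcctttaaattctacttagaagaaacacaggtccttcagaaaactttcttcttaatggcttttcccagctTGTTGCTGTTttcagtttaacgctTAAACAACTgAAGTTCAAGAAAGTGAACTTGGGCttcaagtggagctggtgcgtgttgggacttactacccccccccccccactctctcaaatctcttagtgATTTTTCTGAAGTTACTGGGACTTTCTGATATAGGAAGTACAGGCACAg
The shared runs held 92 bases of each Ms4a4 window and 91 bases of each Ms4a6 window. Of the 250 bases, 231 were aligned in the Ms4a4 pair and 175 in the Ms4a6 pair.

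Motifs were searched on both strands in windows from 250 bases before to 50 bases after each start. The core of the interferon-stimulated response element (ISRE) was in 3.44% of the 32851 windows of the table and in 0 of the 8 MS4A windows. The STAT motif TTCNNNGAA (8.3% of windows) and the PU.1 motif GAGGAAGT (3.2%) were also in 0 of the 8. The NF-kB core motif (1.63% of windows) was in 1, that of Ms4a4a, beginning 247 bases before the start. That window is shown for this match, in capitals, at chr19:11375238-11375487 on the plus strand.
Ms4a4a: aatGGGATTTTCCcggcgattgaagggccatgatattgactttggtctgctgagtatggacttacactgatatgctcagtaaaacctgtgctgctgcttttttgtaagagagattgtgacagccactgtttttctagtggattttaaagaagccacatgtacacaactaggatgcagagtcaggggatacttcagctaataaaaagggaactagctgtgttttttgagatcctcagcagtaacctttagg
The shorter GGAAGT, which is part of the PU.1 motif and was added after reading the windows, was in 23.8% of all windows and in 6 of the 8, among them 15 bases before the start in Ms4a4c and in Ms4a7, 16 in Ms4a6c and 19 in Ms4a4b. A match of letters is a description and not a binding site.

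Against the untreated library, 7 of the 8 genes rose with YB328 and 7 with P. vulgatus; Ms4a4d stayed under 5 CPM in every library and was not called. Among all 10699 genes that reached 5 CPM, 24.7% were called higher and 18.3% lower with YB328, and 25.2% higher and 18.8% lower with P. vulgatus. The median log2 ratio of the 7 was 4.63 with YB328, against 0.17 over all genes, and 3.65 with P. vulgatus, against 0.15. Both comparisons share the untreated library. Ms4a4b, Ms4a4c, Ms4a6b and Ms4a7 had less than 5 CPM untreated and entered only through a bacterial library. The count and medians over the 7 are therefore a description, and the direction of these 4 was set by that entry. The exception is Ms4a4b with YB328, where its 3.09 CPM stayed under 5 CPM and it entered only through P. vulgatus. Of all genes called, 57.5% were higher with YB328 and 57.2% with P. vulgatus, and with the deposited TPM these shares were 74.9% and 70.2%.

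**Figure D2:**
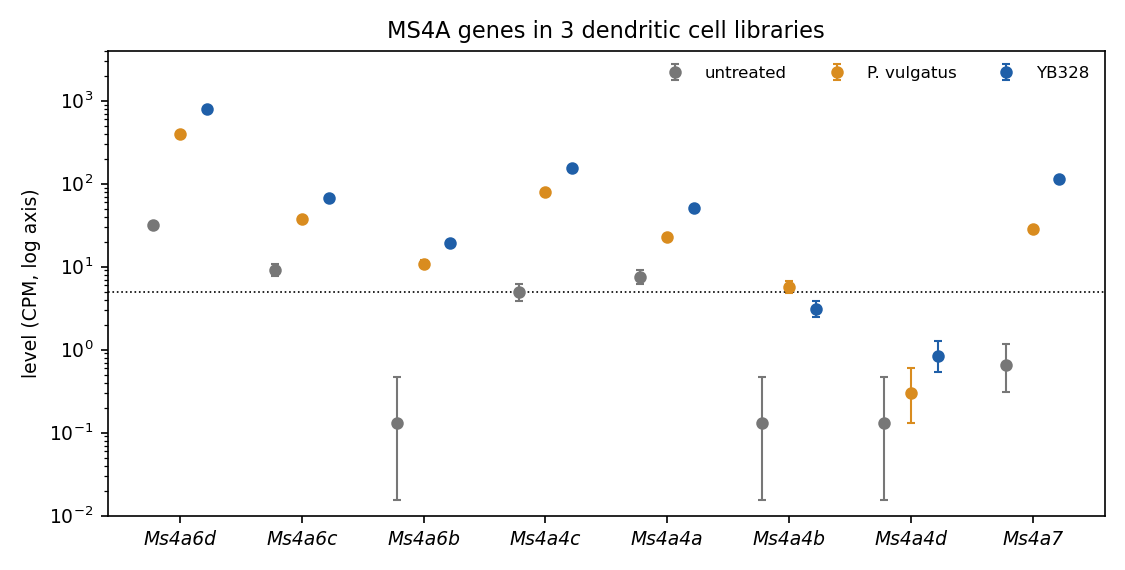
Level of each MS4A gene (CPM, log axis) untreated, with P. vulgatus and with YB328, 1 library each; bars are 95% intervals that cover counting error only, and the dotted line marks 5 CPM. The untreated point is lowest for all 8 genes, and YB328 lies above P. vulgatus except for Ms4a4b.

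Ms4a6d (ENSMUSG00000024679.10, chr19:11586604-11604849, minus strand) was the most abundant of the 8 in every library. Its count was 489 untreated, 10618 with P. vulgatus and 21548 with YB328, which is 31.6, 402 and 791 CPM. It rose 25.1-fold (22.9 to 27.5) with YB328 and 12.7-fold (11.6 to 14.0) with P. vulgatus. With this many reads the counting error is small, while the spread between cultures is unknown. Per length its level was 21.4, 382 and 804 TPM in the same order of libraries.

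Ms4a6c (ENSMUSG00000079419.4, chr19:11469366-11482192, plus strand), a gene expressed by mouse monocytes, had 140.97, 988.39 and 1856.12 estimated counts untreated, with P. vulgatus and with YB328. That is 9.10, 37.4 and 68.1 CPM, a rise of 7.49-fold (6.30 to 8.95) with YB328 and 4.11-fold (3.44 to 4.94) with P. vulgatus, while the deposited TPM gave ratios of 13.0 and 6.19. It was present in the untreated culture and rose by less than Ms4a6d. Ms4a6b (ENSMUSG00000024677.13, chr19:11516512-11531256, plus strand) had 2 counts untreated, 284.27 with P. vulgatus and 518.94 with YB328. These are 0.129, 10.8 and 19.0 CPM, a ratio of 147.5 (40.6 to 1222) with YB328 and 83.4 (22.9 to 691) with P. vulgatus. On the TPM scale the ratios were 608 and 308. Ms4a6b was thus nearly undetected untreated, and its ratios rest on those 2 counts. The pair with the like promoter windows, Ms4a6b and Ms4a6c, differed in the untreated level and in the size of the ratio, with intervals that do not overlap in either comparison.

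Ms4a4c (ENSMUSG00000024675.19, chr19:11404770-11427246, plus strand) was the most abundant of the Ms4a4 genes with bacteria. It had 76, 2071.9 and 4243.81 estimated counts for untreated, P. vulgatus and YB328, or 4.90, 78.4 and 156 CPM. The rise was 31.7-fold (25.3 to 40.4) with YB328 and 16.0-fold (12.7 to 20.4) with P. vulgatus, and on the TPM scale the ratios were 62.7 and 26.2. Ms4a4a (ENSMUSG00000101389.1, chr19:11375523-11392790, plus strand), the dectin-1 partner, had 117, 598 and 1388 counts. Its level of 7.55 CPM untreated, 22.6 with P. vulgatus and 50.9 with YB328 is a rise of 3.0-fold (2.46 to 3.69) and 6.75-fold (5.58 to 8.22). Together with Ms4a6c it had the smallest rise with P. vulgatus among the 7, and its log2 ratio there, 1.52, lay within the top 15.5% of all genes, against the top 1.98% for Ms4a4c.

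Ms4a4b (ENSMUSG00000056290.16, chr19:11443553-11467055, plus strand) was the one gene of the 8 whose level was higher with P. vulgatus than with YB328. It had 2 counts untreated, 151.1 with P. vulgatus and 84.19 with YB328, or 0.129, 5.72 and 3.09 CPM. Only the P. vulgatus library reached 5 CPM, so the direction between the bacteria was set by that entry. The ratio to untreated was 44.3 (12.1 to 369) with P. vulgatus and 23.9 (6.41 to 200.4) with YB328, or 63.6 and 49.2 in TPM. Its closest copy Ms4a4c, with 91.7% of the coding bases and 80.1% of the aligned promoter bases alike, was 1.99-fold (1.88 to 2.09) higher with YB328 than with P. vulgatus, where Ms4a4b was 1.85-fold (1.41 to 2.45) lower. Neither of these differences reached the log2 size of 1 that a call asks for. The intervals of these ratios do not overlap, but the uncertain split of reads between the copies applies to both genes.

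Ms4a4d (ENSMUSG00000024678.6, chr19:11536801-11558467, plus strand) was barely detected, with 2, 8 and 23 counts untreated, with P. vulgatus and with YB328. Its levels were 0.129, 0.303 and 0.844 CPM, with a ratio of 6.54 (1.62 to 57.2) with YB328, or 9.83 in TPM, and 2.35 (0.468 to 22.7) with P. vulgatus. A difference between the P. vulgatus and untreated libraries was not detectable at this depth.

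Ms4a7 (ENSMUSG00000024672.11, chr19:11321039-11336146, minus strand), the macrophage marker, had 10 counts untreated, 745 with P. vulgatus and 3107 with YB328. That is 0.645, 28.2 and 114 CPM, and per length 0.746, 34.3 and 141 TPM. The gene rose 176.7-fold (95.9 to 369) with YB328 and 43.7-fold (23.6 to 91.5) with P. vulgatus. Its log2 ratios of 6.64 and 4.65 were the highest of the 8 in both comparisons, at rank 23 and rank 112 of the 10699 genes. That order depends on the added 0.5 CPM: without it Ms4a6b and Ms4a4b, each with 2 untreated counts, had higher ratios than Ms4a7 with P. vulgatus. The width of the Ms4a7 intervals comes mainly from the 10 untreated counts.

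**Figure D3:**
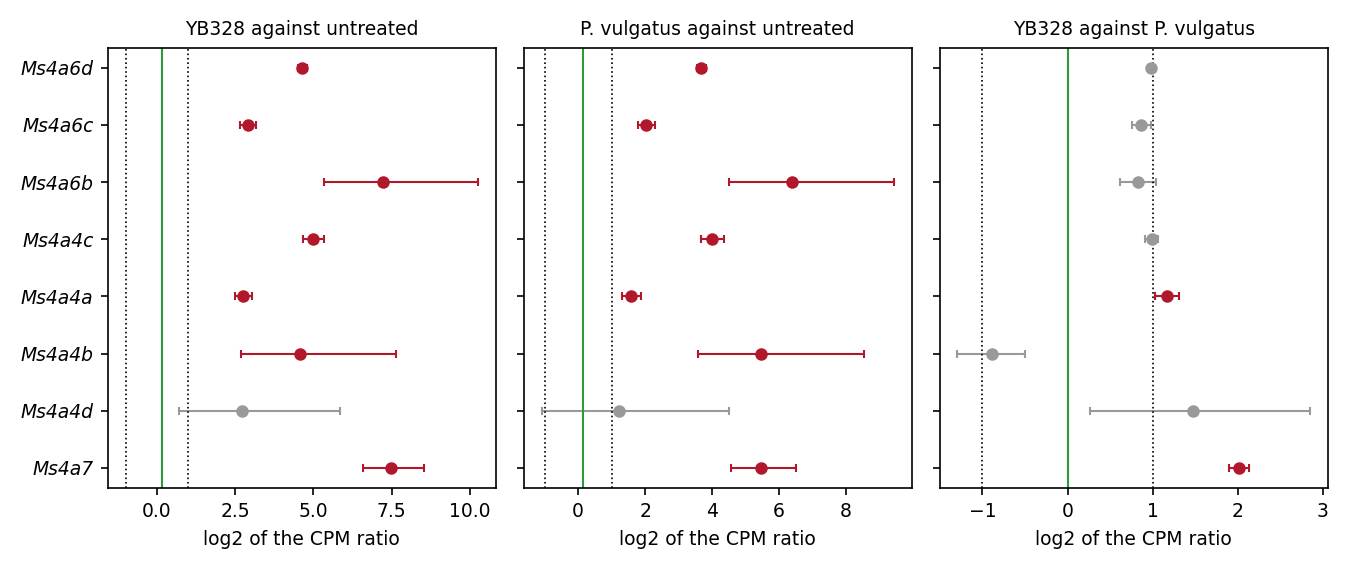
Log2 of the CPM ratio (nothing added) of each MS4A gene for YB328 and for P. vulgatus against untreated and for YB328 against P. vulgatus; bars are 95% intervals covering counting error only. Red points passed the rule of size, dotted lines mark a log2 ratio of 1 in size and the green line is the median over all genes; in the last comparison Ms4a7 and Ms4a4a are red, and Ms4a4b lies below 0.

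Between the bacteria, Ms4a7 and Ms4a4a were called higher with YB328, and none of the 8 was called lower. Over all genes, 3.4% were called higher and 2.89% lower with YB328 than with P. vulgatus. Ms4a7 was 4.04-fold (3.73 to 4.38) higher with YB328, at rank 58 of 10699 genes by log2 ratio, and Ms4a4a was 2.25-fold (2.04 to 2.48) higher. Ms4a6d, Ms4a4c, Ms4a6c and Ms4a6b had ratios of 1.97 (1.92 to 2.01), 1.99 (1.88 to 2.09), 1.82 (1.68 to 1.97) and 1.77 (1.53 to 2.05). All 4 intervals lie above 1, and none of the log2 ratios, 0.97, 0.98, 0.86 and 0.79, reached 1 after 0.5 CPM was added. Ms4a6d and Ms4a4c lay so close to that limit that total count scaling, which moved the median of all genes from 0.00 to 0.03, put both past it at 1.01 and 1.02. With the deposited TPM, Ms4a6c passed too, at 1.06. In Ms4a4b, which reached 5 CPM only with P. vulgatus, the log2 ratio was -0.79 from counts and -0.34 from the deposited TPM, negative on both scales. The median of the 7 genes was 0.97 against 0.00 over all genes, and 3.58% of all genes had a log2 ratio at or above that median.

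The 8 genes summed to 838.97 counts untreated, 15464.7 with P. vulgatus and 32769.1 with YB328, which is 0.00540%, 0.0580% and 0.122% of all counts. In scaled units the sum was 54.1, 585.5 and 1202 CPM. It was 22.2-fold (20.7 to 23.8) higher with YB328 and 10.8-fold (10.1 to 11.6) higher with P. vulgatus than untreated, and 2.05-fold (2.01 to 2.09) higher with YB328 than with P. vulgatus. Ms4a6d dominates this sum; without it, an alternative added after seeing the data, the same ratios were 18.2, 8.12 and 2.24.

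Shares within the sum do not depend on scaling between libraries. Ms4a6d took 58.3% (95% Clopper-Pearson interval 54.9 to 61.6) of the summed counts untreated, 68.7% (67.9 to 69.4) with P. vulgatus and 65.8% (65.2 to 66.3) with YB328. Ms4a7 took 1.19% (0.573 to 2.18), 4.82% (4.49 to 5.17) and 9.48% (9.17 to 9.80) in that order. So the share of Ms4a7 differed between all 3 libraries beyond counting error, and was largest with YB328. Ms4a6c went the other way, with 16.8% (14.3 to 19.5) untreated, 6.39% (6.01 to 6.79) with P. vulgatus and 5.66% (5.42 to 5.92) with YB328. Ms4a4a took 13.9% (11.7 to 16.5), 3.87% (3.57 to 4.18) and 4.24% (4.02 to 4.46), with overlapping intervals in the bacterial libraries. Ms4a4b took 0.977% (0.827 to 1.14) with P. vulgatus and 0.257% (0.205 to 0.317) with YB328.

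**Figure D4:**
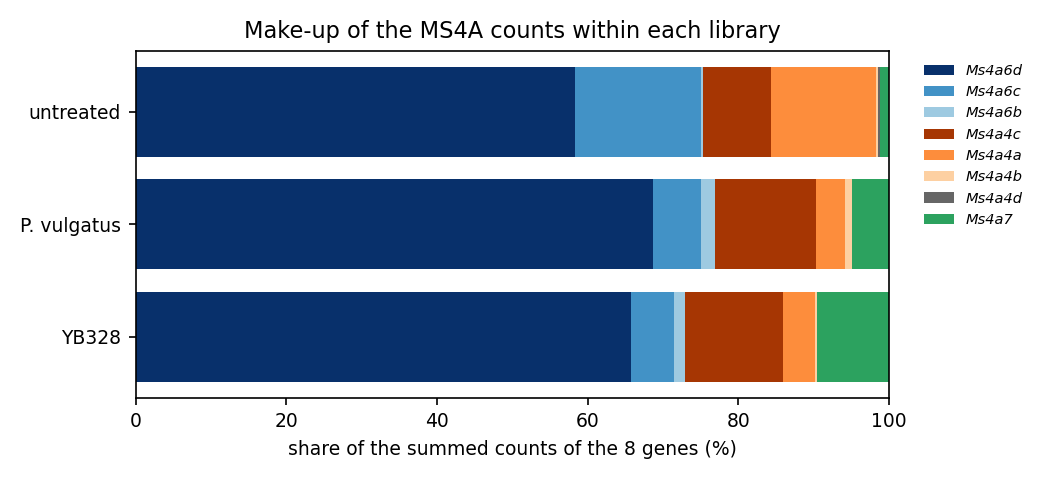
Share of each gene (percent) in the summed counts of the 8 MS4A genes, untreated, with P. vulgatus and with YB328, 1 library each. The Ms4a7 part is 1.19% untreated, 4.82% with P. vulgatus and 9.48% with YB328, while the Ms4a6c and Ms4a4a parts are larger untreated than with either bacterium.

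Levels of different genes can be compared per length. In TPM the untreated order was Ms4a6d (21.4), Ms4a4a (11.1), Ms4a6c (6.95), Ms4a4c (2.72) and Ms4a7 (0.746). Ms4a4b, Ms4a4d and Ms4a6b followed with 0.095, 0.087 and 0.025 TPM, and since each rests on 2 counts they have no order. With P. vulgatus the TPM order was Ms4a6d (382), Ms4a4c (71.4), Ms4a4a (44.7), Ms4a6c (43.0), Ms4a7 (34.3), Ms4a6b (7.71), Ms4a4b (6.05) and Ms4a4d (0.287). Ms4a4a and Ms4a6c are neighbours there whose difference in TPM is smaller than the counting error of Ms4a4a, whose 22.6 CPM has an interval of 20.9 to 24.5. With YB328 the TPM order was Ms4a6d (804), Ms4a4c (171), Ms4a7 (141), Ms4a4a (107), Ms4a6c (90.1), Ms4a6b (15.2), Ms4a4b (4.67) and Ms4a4d (0.855). Ms4a7 thus stood behind Ms4a4a and Ms4a6c untreated and with P. vulgatus, and ahead of both with YB328; with no replicate libraries the spread of such an order is unknown.

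Likeness of pattern over the 3 libraries was measured by the distance between log2(CPM + 0.5) values, each gene centred on its own mean. The distance was 0.182 between Ms4a4c and Ms4a6d and 0.329 between Ms4a4a and Ms4a6c, and with 0.1 CPM added in place of 0.5, an alternative chosen after seeing the data, it was 0.255 and 0.329. Both are pairs across the sequence subgroups. Ms4a6b lay 0.211 from Ms4a4c and 0.367 from Ms4a6d, but 1.24 and 1.49 with 0.1 CPM added, so that these distances depend on the value added to its 2 untreated counts. All remaining pairs were at 1.23 or more with 0.5 CPM added. Among 6843 other genes that reached 20 CPM, Ms4a4c had Igf2bp2 close by at 0.121, or 0.118 with 0.1 CPM added. Ms4a6c had Tent5c at 0.0968 and 0.104, and Ms4a4a had St14 at 0.114 and 0.116, on the same scales. For genes with few untreated counts the nearest gene or its distance moved with the added value. Ms4a4b was nearest to Pfkl, a phosphofructokinase gene of glycolysis, at 0.00696 with 0.5 CPM added, and 1.08 away from it with 0.1 CPM added, where Il1b was nearest at 0.0412. Ms4a6b was nearest to Apol9b at 0.107 and then to Serpinb2 at 0.302. Ms4a7 was nearest to Gsta2 on both scales, at 0.443 and 0.0875. Ms4a6d was nearest to Igf2bp2 at 0.193 and then to Mavs at 0.269. With 3 points per gene such likeness is common and is given as a description.

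Of the 13 other Ms4a genes Ms4a3 alone reached 5 CPM, so none of the rest could be called. Ms4a3, a gene of granulocyte and monocyte progenitors, had 251 counts untreated, 9 with P. vulgatus and 40 with YB328, or 16.2, 0.341 and 1.47 CPM. It fell in both bacterial libraries, by a factor of 47.5 (24.6 to 105.2) with P. vulgatus and 11.0 (7.88 to 15.8) with YB328. Ms4a3 reached 5 CPM only untreated, so the direction of this fall was set by that entry. Its level was 4.31-fold (2.06 to 10.1) higher with YB328 than with P. vulgatus, on 9 counts. Ms4a14, which lies beside Ms4a7, had 2, 1 and 68 counts for untreated, P. vulgatus and YB328, and Ms4a8a had 1, 6 and 46. Both stayed under 5 CPM and so could not be called. Their ratios of YB328 to untreated were 19.3 (5.15 to 162.9) and 26.2 (4.47 to 1055), resting on 2 and 1 untreated counts. For P. vulgatus against untreated the ratios were 0.293 (0.00497 to 5.63) and 3.52 (0.427 to 161.9). Between YB328 and P. vulgatus they were 65.9 (11.4 to 2641) and 7.43 (3.17 to 21.3). The CD20 gene Ms4a1 had 4, 27 and 4 counts, with a ratio of 3.96 (1.38 to 15.6) for P. vulgatus against untreated. The IgE receptor gene Ms4a2 had 9, 0 and 3 counts. Ms4a20 had 0, 0 and 1 count, and the other 7 genes had 0 in every library. The upper limit of the 95% exact Poisson interval of a 0 count is 0.238 CPM untreated, 0.140 with P. vulgatus and 0.135 with YB328. The related Tmem176b and Tmem176a, overlapping genes on opposite strands whose proteins are cation channels of dendritic cells, were not called in any comparison, with 168, 135 and 226 CPM and with 52.7, 62.8 and 85.3 CPM. For Tmem176a this depends on the scale, since its deposited TPM of 27.7, 68.2 and 98.6 gave ratios to untreated of 2.46 with P. vulgatus and 3.56 with YB328.

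Partners of MS4A proteins and genes of their pathways were read from a list of 13 genes, of which 12 reached 5 CPM. With YB328, 2 of the 12 were higher than untreated and 0 lower. With P. vulgatus, 2 were higher and 3 lower. The kinase gene Syk, which acts downstream of dectin-1, stood at 102 CPM untreated, 296 with P. vulgatus and 340 with YB328, and Fcer1g, the gene of an adaptor for activating receptors, at 427, 908 and 894, and both rose with each bacterium. Clec7a itself, the gene of the MS4A4A partner dectin-1, stood at 381, 55.7 and 342 CPM. It fell by a factor of 6.85 (6.47 to 7.25) with P. vulgatus and was not called with YB328, and between the bacteria it was 6.14-fold (5.81 to 6.49) higher with YB328. The signalling adaptor gene Card9 (10.6, 3.79 and 7.60 CPM) and the adaptor gene Tyrobp (245, 86.3 and 150.6 CPM) also fell with P. vulgatus. Trem2, a receptor gene of macrophages and microglia, was called higher with YB328 than with P. vulgatus, with 59.2 CPM untreated, 40.3 with P. vulgatus and 88.1 with YB328, as was the growth factor receptor gene Kit. Vsig4, the Ms4a6d partner, had 3, 4 and 4 counts. Nlrp3 (35.7, 41.5 and 29.9 CPM), Tnfrsf18 (22.5, 16.1 and 18.8 CPM) and Cd44 (207, 153 and 128 CPM) were not called in any comparison.

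Markers of cell types that use MS4A genes were set beside these results. Of 16 macrophage markers 13 reached 5 CPM; 4 rose and 1 fell with each bacterium against untreated, and the median log2 ratio was 0.23 with YB328 and -0.36 with P. vulgatus. Their summed level was 4257, 4378 and 5655 CPM untreated, with P. vulgatus and with YB328. Cd68 (74.2, 323 and 724 CPM), Adgre1, the F4/80 gene (42.6, 264 and 398 CPM) and Fcgr1 (29.8, 100.3 and 183 CPM) rose with each bacterium and, like Ms4a7, stood highest with YB328. Apoe (266, 695 and 653 CPM) also rose with each bacterium but stood highest with P. vulgatus. Mrc1, the mannose receptor gene, fell (29.4, 6.13 and 2.28 CPM), and Folr2 and Lyve1 were at 0 in both bacterial libraries. Between the bacteria 3 of the 13 were higher with YB328 and 1 lower, and Adgre1 and Fcgr1 were not called. Whether a macrophage part of the cultures has a share in the Ms4a7 difference was not tested.

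The labelled cell type was checked against 12 markers of conventional dendritic cells, all of which reached 5 CPM in a library. Zbtb46, a transcription factor gene of these cells, stood at 48.2, 69.9 and 65.8 CPM untreated, with P. vulgatus and with YB328, Flt3 at 23.2, 12.4 and 18.6, and the class II gene H2-Ab1 at 2222, 2700 and 2185. Itgax, the CD11c gene, fell from 272 CPM to 22.6 with P. vulgatus and 75.5 with YB328, and Cd209a was at 0 with YB328. Of the 12, 1 rose and 4 fell with P. vulgatus, and 1 rose and 3 fell with YB328. The median log2 ratio of the list was -0.08 and 0.00.

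T and NK cell markers, relevant to Ms4a4b, were low: of 14, Cd28 alone reached 5 CPM, with 0, 6.51 and 9.25 CPM for untreated, P. vulgatus and YB328. Lck had 9, 119 and 66 counts (0.581, 4.51 and 2.42 CPM) and Nkg7 had 4, 45 and 9, while Cd3g had 3, 5 and 19 and Cd5 had 1, 1 and 18. The library with the highest level thus differed between markers of this list. Cd3e had 5, 7 and 6 counts, Cd3d 11, 5 and 2, and Ncr1 and Klrb1c were at 0 in both the untreated and YB328 libraries. The summed level of the list was 3.94, 17.9 and 17.0 CPM, the Cd28 levels included. None of 8 B cell markers reached 5 CPM, with Pax5 at 0, 4 and 0 counts and a summed level of 4.07, 8.71 and 3.52 CPM. Of 9 mast cell and basophil markers 5 reached 5 CPM and Hdc rose (14.6, 154 and 227 CPM), with Mcpt4 at 0 in every library and a summed level of 84.2, 227.5 and 300.2 CPM. Of 10 granulocyte progenitor and neutrophil markers 7 reached 5 CPM and all 7 fell with each bacterium, among them Ms4a3, and the sum of the list went from 4324 CPM untreated to 319.97 with P. vulgatus and 284 with YB328. Ms4a3, Mpo and Ctsg reached 5 CPM only untreated, so their direction was set by that entry. Of 8 endothelial markers 3 reached 5 CPM, and 0 of them fell with either bacterium. Kdr (0.194, 65.5 and 104.5 CPM) and Vwf (2.19, 13.5 and 16.8 CPM) rose with each bacterium. Both reached 5 CPM only with bacteria, so neither could have been called lower against untreated. Pecam1 (6.07, 20.8 and 7.56 CPM) rose with P. vulgatus and was not called with YB328. Among the rest, Cdh5 had 0, 15 and 17 counts, Tek 0, 1 and 0, and Erg 20, 0 and 0. The list summed to 10.3, 100.4 and 129.8 CPM. The part of these cell types in the MS4A levels was not tested beyond these values.

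A list of 20 interferon response genes was also set beside the family. Of them 19 rose and 0 fell with each bacterium, with a median log2 ratio of 4.72 with YB328 and 4.67 with P. vulgatus. The corresponding MS4A medians were 4.63 and 3.65. Between the bacteria the interferon list had 1 gene higher and 1 lower with YB328, a median of -0.02, and a summed level of 12360 CPM with P. vulgatus and 12686 with YB328. The MS4A median there was 0.97. The MS4A median was thus near that of the list with YB328 and below it with P. vulgatus, as a description without a test. Single MS4A genes ranged from 2.51 to 6.64 with YB328 and from 1.52 to 4.65 with P. vulgatus. Ms4a4c, Ms4a6b and Ms4a7 reached 5 CPM only with bacteria, and Ms4a4b only with P. vulgatus, so their height against untreated was partly set by that entry. Of the 20 list genes, 15 reached 5 CPM untreated.

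**Figure D5:**
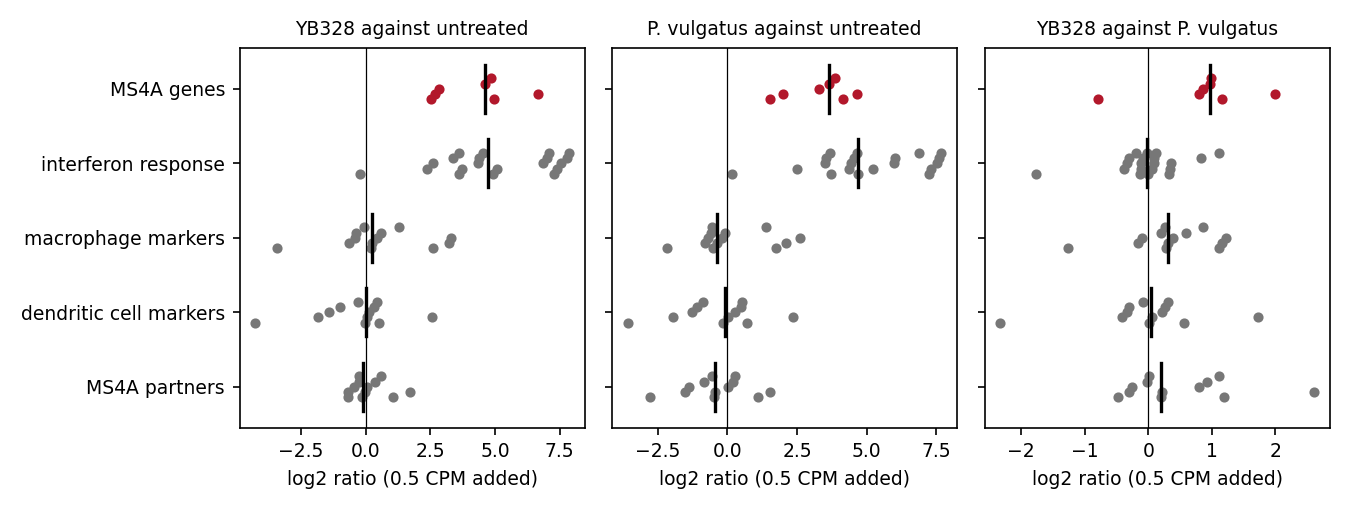
Log2 ratios (0.5 CPM added) of the 7 MS4A genes that reached 5 CPM and of the interferon response, macrophage marker, dendritic cell marker and MS4A partner lists in the 3 comparisons; each point is a gene and the black bar is the median of the list. In the comparison of YB328 with P. vulgatus the MS4A median is 0.97 and the interferon median is -0.02.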

How the data were processed

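RNA of 3 wild-type BMDC cultures was sequenced. Per the labels' protocols, RNA was purified with RNeasy Micro, cDNA was made with SMART-Seq v4 and libraries with Nextera XT, which does not mark strand. DRAGEN and GRCm38 are named in the submitters' processing notes, while the sources used here name neither the counting tool nor the annotation release. The authors deposited estimated counts (also called expected counts), which are unscaled, and TPM values (corrected for gene length) for each gene, per the file headers. Estimated counts were not whole for 8.86% to 9.99% of genes, and were rounded for intervals.

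Counts were scaled by the trimmed mean of M values with edgeR 4.0.16 in R 4.3.3. Ratios, intervals and alignments were computed in Python 3.11.15 (scipy 1.17.1, numpy 2.4.6, Biopython 1.88, pandas 2.3.3), with figures from matplotlib 3.10.9. Single libraries allow no test, and the rule of size (5 CPM or more in some library, a log2 ratio with 0.5 CPM added that reaches 1 in either direction, a 95% Clopper-Pearson interval excluding 1) was applied to all 10699 genes that reached 5 CPM. The rule was also run on simulated counts that held counting noise only, which cannot show how it behaves under the spread between cultures. The precision follows from 15538132.9 to 26924006.2 counts per library. The text names all members, all other Ms4a genes, Tmem176a and Tmem176b, the partner list, genes among the nearest 3 patterns per member (with 0.5 or 0.1 CPM added), and list members at 0 or with high levels; further list members, such as Flt3 and Zbtb46, were chosen after their values were seen. Alternatives were median-of-ratios size factors (DESeq2 1.42.0), total count scaling, nuclear protein-coding genes alone without Lars2, TPM, no minimum, a minimum of 20 CPM, and 0.1 or 2 CPM added. Coding-sequence identity from GENCODE M21 transcripts replaced a planned protein comparison. The members, lists and rules were chosen with earlier results of these data known.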

Additional observations from a re-analysis of the deposited data

How the results depend on the processing

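All 7 genes that rose against untreated cells with each bacterium also rose under median-of-ratios size factors, total count scaling, nuclear protein-coding genes alone, TPM, and 0.1 or 2 CPM added. A minimum of 20 CPM left out Ms4a4b and Ms4a6b and kept the other 5, and with no minimum Ms4a4d was also called higher with YB328. No member ratio changed sign under the other scalings or TPM; the minimum and added CPM cannot turn a sign. The number of the 8 genes called higher with YB328 than with P. vulgatus went from 2 to 4 with total count scaling and to 5 with TPM.

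The log2 ratio of the summed MS4A counts, 4.47 for YB328 against untreated, was 4.32 with nuclear protein-coding genes alone, 4.95 with TPM and 4.19 without Ms4a6d. For P. vulgatus against untreated, 3.43 became 3.29, 3.77 and 3.02 under the same settings. For YB328 against P. vulgatus, 1.04 became 1.07 with total count scaling, 1.18 with TPM and 1.17 without Ms4a6d. The median over all genes moved from 0.17 to 0.61 (YB328) and from 0.15 to 0.49 (P. vulgatus) with TPM, and to 0.05 and 0.02 with nuclear protein-coding genes alone.

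Over all genes, 4602 were called for YB328 against untreated, and 7242 with no minimum or 2881 with 20 CPM. The counts for P. vulgatus against untreated were 4711, 7473 and 2946, and for YB328 against P. vulgatus 673, 1547 and 275, or 419 with 2 CPM added. A changed minimum alters how many genes are compared, and adding 2 CPM shrinks the ratios of low genes; no other cause was tested. No paired analysis was possible because each group has 1 library, and no library could be left out. Depth limits Ms4a4d and the untreated levels of Ms4a4b and Ms4a6b, at 2 counts each, and the untreated level of Ms4a7, at 10 counts.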
